A study of Homo sapiens with 16 samples.

Results

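Protein kinase A is the main kinase that answers cyclic AMP, and its subunit genes are described here in MCF10A cells, an established line of non-malignant human breast epithelial cells. The 6 genes were the regulatory subunits PRKAR2A, PRKAR2B, PRKAR1A and PRKAR1B and the catalytic subunits PRKACA and PRKACB, and all 6 symbols were found among the 26475 genes of the count table. They were picked because PRKAR2A was among the genes lowest with collagen against control, so that difference is given as a description and supports nothing. All groups were of this one line and grew in medium with cholera toxin, insulin, epidermal growth factor and hydrocortisone. There were 4 groups of 4 libraries each. Control cells received the vehicle DMSO without collagen, and the collagen group received 0.05 mg/mL collagen with DMSO. The DDR1i group received collagen with DDR1-IN-1 at 2 µM, an inhibitor of the collagen receptor kinase DDR1. The RUNXi group received collagen with AI-10-104 at 5 µM, which blocks binding of RUNX transcription factors to their partner CBFβ. Each inhibitor was present for 24 h before collagen and for the 24 h with it, and a single cell line stands for breast epithelium in all 4 groups.

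In the resting enzyme a dimer of regulatory subunits holds catalytic subunits inactive, and cyclic AMP binding to the regulatory subunits frees them to phosphorylate serine and threonine residues. Type I enzyme, built on the RI subunits, is largely soluble, whereas type II enzyme, built on the RII subunits, is mostly tethered to membranes, centrosomes and cytoskeleton by A-kinase anchoring proteins. Cholera toxin keeps the stimulatory G protein active and so raises cyclic AMP. It is a usual additive for mammary epithelial cultures, and here control and treated cells shared it.

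The genes lie on 5 chromosomes. On GRCh37, PRKAR2A spans chr3:48782030-48885307 on the minus strand, with 11 exons in its canonical transcript. PRKAR2B lies at chr7:106685150-106802256, PRKAR1A at chr17:66507921-66547460, PRKAR1B at chr7:588834-767287, PRKACA at chr19:14202500-14228896 and PRKACB at chr1:84543745-84704181. The 5′ end of PRKAR2A overlaps the antisense gene PRKAR2A-AS1 by 303 bases, and since strand use in counting is not given in the sources used here, reads from that overlap could have gone to either gene. PRKAR2A-AS1 itself reached at most 0.649 CPM (counts scaled to library size with TMM factors) in any library.

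The 250 bases before the transcription start are shown for 3 regulatory genes, because one agent in the study acts on RUNX and the pathway ends in part on CREB, which binds the cyclic AMP response element. RefSeq windows on GRCh38.p14 were available for all 6 genes, 20 windows in all, and were searched on both strands for TGACGTCA (the cyclic AMP response element), its part TGACG, and the RUNX core motifs TGTGGT and TGCGGT. Capitals mark matches, on whichever strand they lie. The PRKAR2A window, its only one, is chr3:48847875-48848124 on the minus strand. The PRKAR2B window is chr7:107044455-107044704 and the PRKAR1A window is chr17:68512180-68512429, both on the plus strand.
PRKAR2A: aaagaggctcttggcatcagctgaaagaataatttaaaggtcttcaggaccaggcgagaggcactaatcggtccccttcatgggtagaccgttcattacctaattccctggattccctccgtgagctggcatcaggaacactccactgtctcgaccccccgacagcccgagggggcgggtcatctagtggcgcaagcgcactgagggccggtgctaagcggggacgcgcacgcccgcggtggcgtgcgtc
PRKAR2B: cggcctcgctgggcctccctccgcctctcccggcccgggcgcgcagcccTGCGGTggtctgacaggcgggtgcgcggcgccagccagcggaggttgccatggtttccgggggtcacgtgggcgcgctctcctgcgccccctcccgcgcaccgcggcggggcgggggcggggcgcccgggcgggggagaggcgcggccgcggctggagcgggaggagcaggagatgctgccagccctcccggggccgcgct
PRKAR1A: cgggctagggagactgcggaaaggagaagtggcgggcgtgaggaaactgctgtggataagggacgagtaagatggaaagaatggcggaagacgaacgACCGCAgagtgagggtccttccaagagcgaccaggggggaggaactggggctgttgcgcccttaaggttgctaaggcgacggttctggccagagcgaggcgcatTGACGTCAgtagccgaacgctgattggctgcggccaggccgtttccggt
None of the 4 motifs occurred in the PRKAR2A window. PRKAR2B held TGCGGT beginning at position -201 from the start site. This PRKAR1A window, 1 of 5 for the gene and shown because it alone among the 20 held the full TGACGTCA, had that motif at -49 and a TGCGGT match on the other strand at -153. Both TGACG matches in it lie inside TGACGTCA. Among all 35116 promoter windows of the same length, TGACGTCA occurred in 1.65%, TGACG in 21.22%, TGTGGT in 10.98% and TGCGGT in 5.84%. TGCGGT also occurred in 4 of the 6 PRKAR1B windows, some of which overlap each other, and in none for PRKACA or PRKACB. The other RUNX motif, TGTGGT, occurred in 1 of the 5 PRKACB windows, beginning at position -248. TGACG occurred in 1 window each for PRKACA, PRKACB and PRKAR1B. Counting the window shown, TGACG occurred in 2 of the 5 PRKAR1A windows. TGCGGT occurred in 2 of those 5, which overlap each other. A match is a description of letters only, and no binding was measured.

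Library totals ran from 12184619 to 44332378 counts. Collagen replicate 3 had been removed by the authors as an outlier and was left out of the fits here, but its values are printed. In 7 libraries (control 2 and 3, collagen 1 and 2, DDR1i 3, RUNXi 1 and 3) only 116 to 258 genes had 1 to 5 counts, against 886 to 2574 genes in the other 9, so low counts were sparse in those 7, in each group at least once. The epithelial keratin KRT5 stood at 6968 to 11590 CPM and KRT14 at 1594 to 4755 CPM, whereas the endothelial CDH5 was at 0 in 16 of 16 libraries and the leukocyte PTPRC in 15. The other endothelial marker, PECAM1, was at 0 in 2 libraries and reached at most 2.40 CPM. The summed level of the 6 epithelial markers was 9494 to 12580 CPM with DDR1i and 14070 to 19610 CPM in the other groups. KRT5, KRT14 and KRT17 made up nearly all of that sum, and the other 3 markers overlapped between groups: with DDR1i and with collagen, CDH1 averaged 94.7 and 79.8 CPM, TP63 59.3 and 58.5 CPM, and EPCAM 27.8 and 38.0 CPM. The 3 fibroblast markers together reached at most 6.35 CPM. The part of these differences in the results below was not tested. In bulk RNA, fewer cells of a type and less RNA per cell cannot be told apart.

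PRKAR2A, which encodes the RIIα subunit, varied most of the well expressed subunit genes over the 16 libraries. That spread includes the gap between collagen and control that picked the gene, so it supports nothing. PRKAR2A levels in control cells were 46.2, 51.0, 48.8 and 54.8 CPM in replicates 1 to 4. In the collagen libraries it stood at 22.0, 18.6, 46.3 and 6.89 CPM. The third of these, collagen replicate 3, lay inside the control range, and the other 3 lay below every control library. With DDR1i the levels were 29.5, 38.2, 33.5 and 37.9 CPM, and with RUNXi they were 35.4, 36.8, 19.4 and 44.7 CPM. Thus all DDR1i libraries lay between the control range and the 3 retained collagen libraries, and RUNXi replicate 3 alone of the inhibitor libraries fell among the collagen values.

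Group means for PRKAR2A were 50.2 ± 3.62 CPM in control (SD, n = 4) and 15.8 ± 7.93 CPM with collagen (SD, n = 3), or 23.4 ± 16.5 CPM with replicate 3 (SD, n = 4). The fitted difference between collagen and control was -1.66 on the log2 scale, 0.317-fold, which placed the gene 166 places from the lowest of 13092 genes. This contrast chose the gene, so no test is attached. The difference was -1.09 with collagen replicate 3 included. Without collagen replicate 4, the library with 6.89 CPM, it was -1.30. When the 7 libraries with sparse low counts were left out, collagen was represented by replicate 4 alone and the difference was -2.85. By edgeR's quasi-likelihood test, 0 of 13092 genes (0%) passed an adjusted p of 0.05 between collagen and control. At an unadjusted p under 0.05 there were 1754 genes, and DESeq2 called 414.

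Relative to collagen alone, PRKAR2A was 2.2-fold higher with DDR1i (log2 difference 1.14) and 2.16-fold higher with RUNXi (1.11). Both differences share the collagen libraries for which the gene was picked, and each fell when collagen replicate 3 was included, to 0.56 with DDR1i and 0.53 with RUNXi. Without collagen replicate 4 they were 0.78 and 0.76, and neither is given a test. The contrast between the inhibitors compares no library that chose the gene. Its spread was still estimated in a fit that held the retained collagen libraries, so its interval and p are not free of them. In the inhibitor groups PRKAR2A averaged 34.8 ± 4.14 CPM with DDR1i and 34.1 ± 10.6 CPM with RUNXi (SD, n = 4 each). The log2 difference was 0.03, with a 95% interval from -0.60 to 0.66 (edgeR quasi-likelihood test, Benjamini-Hochberg adjusted p = 0.999). A difference of up to about 1.5-fold in either direction is inside that interval. Of all 13548 genes tested in this contrast, 77 passed (0.568%).

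**Figure D1:**
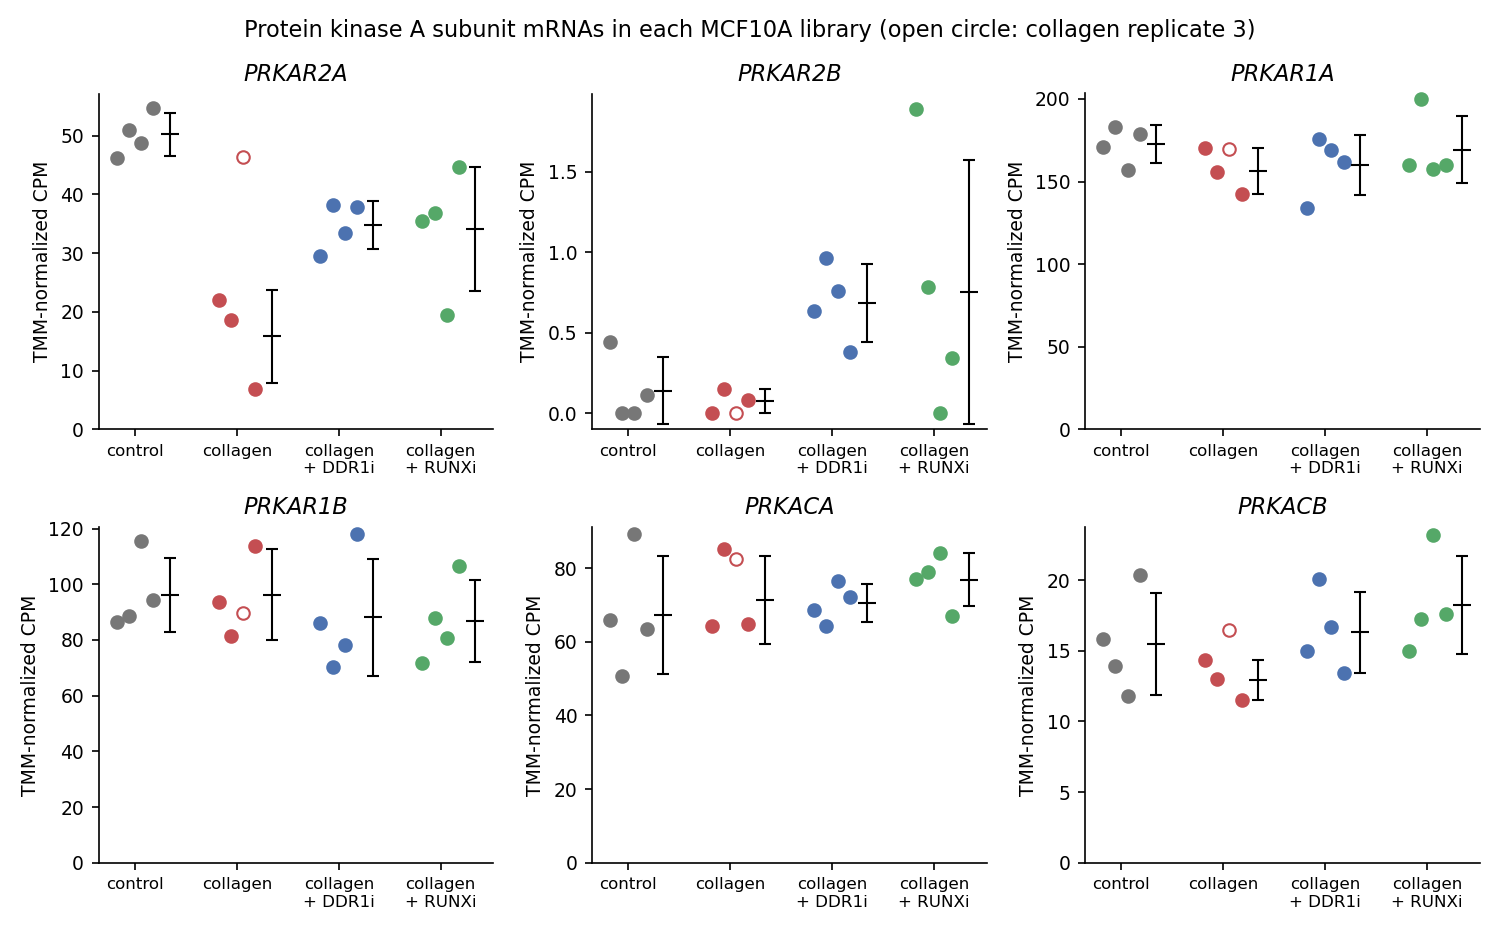
CPM (TMM-normalized, linear axis) of each subunit gene in every library, by group, with the mean and SD beside the points and collagen replicate 3 open and outside the mean. PRKAR2A stands at 46.2 to 54.8 CPM in control and at 6.89 to 22.0 CPM in the 3 filled collagen points, while PRKAR2B stays under 2 CPM throughout.

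PRKAR2B encodes RIIβ, the second type II regulatory subunit. It was close to the limit of detection, with raw counts of 20, 0, 0 and 4 in control, 0, 4, 0 and 2 with collagen, 15, 22, 17 and 6 with DDR1i, and 46, 17, 0 and 9 with RUNXi. A count of 0 allows up to 0.246 CPM in the shallowest library, control replicate 2, for counting error only. Of the 5 libraries at 0, 4 belong to the 7 with sparse low counts. Every DDR1i library, at 0.378 to 0.963 CPM, was above every collagen library, at 0 to 0.151 CPM, but the RUNXi libraries ran from 0 to 1.89 CPM and overlapped them. The fitted log2 difference from collagen was 3.00 ± 1.57 (SE) with DDR1i and 3.14 ± 1.57 (SE) with RUNXi, values that depend on the few counts in the collagen libraries and on the prior count. PRKAR2B entered this fit only through its counts in the inhibitor groups, so its being tested there already reflects a higher level in them, and the values are no support for a difference. Neither passed edgeR's test (Benjamini-Hochberg adjusted p = 0.322 and 0.253), and the 95% intervals ran from -0.23 to 6.23 and from -0.10 to 6.38. Between DDR1i and RUNXi the difference was -0.14, with an interval from -2.71 to 2.43. The gene did not pass the low-count filter for collagen against control. No difference in its level passed where it was tested, and the part of depth or of sparse low counts in this was not tested.

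The type I regulatory genes were the most abundant subunit mRNAs. PRKAR1A encodes RIα, the regulatory subunit found in nearly all cells, whose loss causes Carney complex. Its mean was 172.5 ± 11.5 CPM in control, 159.6 ± 13.2 CPM with collagen, 160.1 ± 18.4 CPM with DDR1i and 169.3 ± 20.5 CPM with RUNXi (SD, n = 4 each). Without collagen replicate 3, as in the fits, the collagen mean was 156.2 ± 14.05 CPM (SD, n = 3). RUNXi replicate 2, at 200 CPM, was the highest of the 16 libraries, and the other RUNXi libraries stood at 157.3 to 160.0 CPM. All 4 groups overlapped. The log2 difference from collagen was 0.03 with DDR1i (95% interval -0.23 to 0.30) and 0.11 with RUNXi (-0.15 to 0.37), and between the inhibitors it was -0.08 (-0.32 to 0.17).

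PRKAR1B encodes RIβ, a form best known from neurons, yet in these libraries it ranged from 70.3 to 118.0 CPM. Control libraries held 86.6 to 115.6 CPM and collagen libraries 81.2 to 113.8 CPM, so the groups overlapped almost entirely. The inhibitor groups overlapped them too, at 70.3 to 118.0 CPM with DDR1i and 71.6 to 106.4 CPM with RUNXi. Its log2 difference from collagen was -0.13 with DDR1i (95% interval -0.47 to 0.21) and -0.16 with RUNXi (-0.50 to 0.19).

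PRKACA encodes Cα, the main catalytic subunit of most tissues. It averaged 67.34 ± 16.04 CPM in control, 74.2 ± 11.2 CPM with collagen, 70.5 ± 5.20 CPM with DDR1i and 76.8 ± 7.20 CPM with RUNXi (SD, n = 4 each). Without collagen replicate 3, as in the fits, the collagen mean was 71.42 ± 11.91 CPM (SD, n = 3). The widest spread was within control, from 50.8 to 89.3 CPM, and it covered every other library. The log2 difference from collagen was -0.02 with DDR1i (95% interval -0.30 to 0.26) and 0.10 with RUNXi (-0.18 to 0.38).

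PRKACB encodes Cβ, the second catalytic subunit. Collagen libraries held 14.4, 13.0, 16.5 and 11.5 CPM and RUNXi libraries 15.0, 17.3, 23.2 and 17.6 CPM, so that the groups overlapped only through collagen replicate 3. DDR1i libraries held 15.0, 20.1, 16.7 and 13.4 CPM, and control libraries spread from 11.8 to 20.4 CPM. The difference between RUNXi and collagen was 0.49 ± 0.22 (SE) on the log2 scale, or 1.4-fold, with a 95% interval from 0.04 to 0.94. It did not pass after adjustment over all genes (edgeR quasi-likelihood test, Benjamini-Hochberg adjusted p = 0.198). With DDR1i the difference from collagen was 0.33 (-0.12 to 0.78, adjusted p = 0.461).

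In all, 0 of the 5 genes other than PRKAR2A passed an adjusted p of 0.05 in edgeR's test of either inhibitor against collagen, and 0 of 6 passed between the inhibitors. At an unadjusted p under 0.05 there was 1, PRKACB with RUNXi, and DESeq2 called none of those to which it gave an adjusted p. Over all 13548 genes, 334 passed with DDR1i (2.47%) and 549 with RUNXi (4.05%), so no call among 5 genes is close to the background. PRKAR2B is among those 5 but entered the fit only through its counts in the inhibitor groups, so its lack of a call supports nothing. The fitted differences of PRKAR1A, PRKAR1B and PRKACA lay within 0.16 of 0, and the median absolute difference of all genes was 0.25 with DDR1i and 0.274 with RUNXi. In collagen against control, where the values are a description, the log2 differences were -0.13 for PRKAR1A, 0.01 for PRKAR1B, 0.09 for PRKACA and -0.25 for PRKACB. All p-values here measure the spread between libraries, which the labels do not tie to separate cultures and which may be technical.

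**Figure D2:**
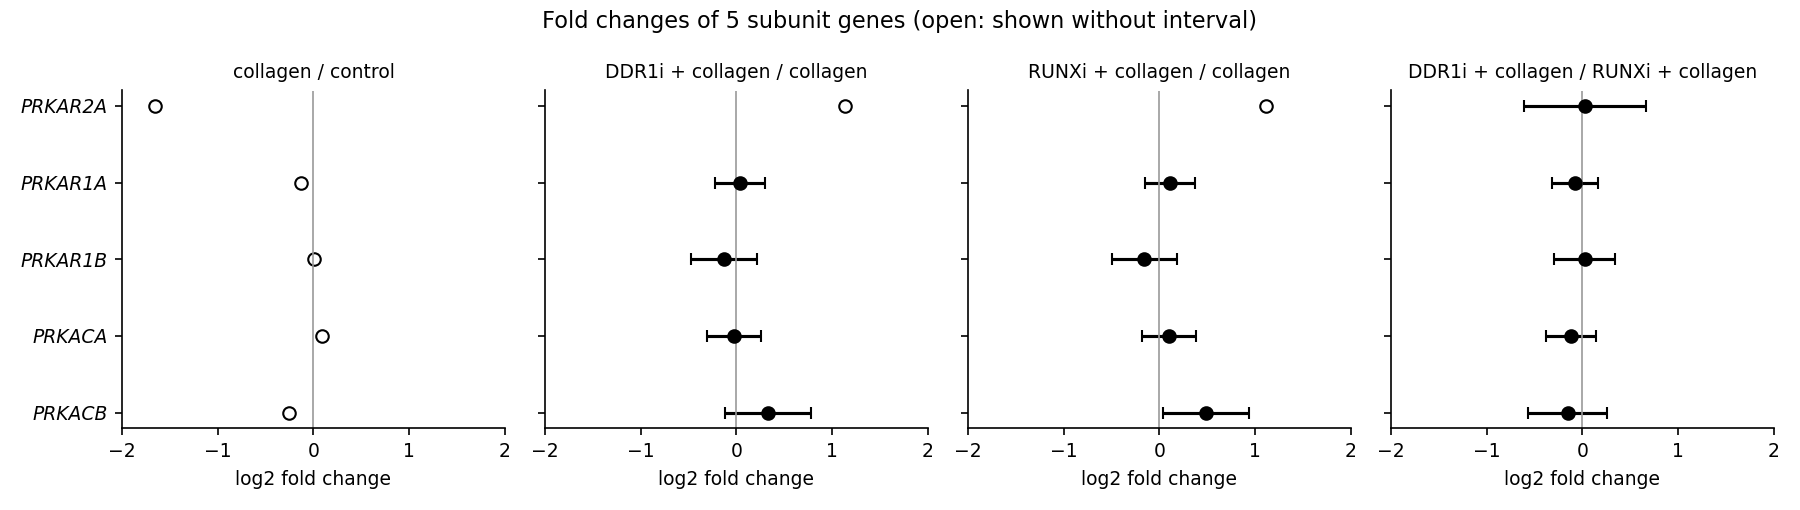
Log2 fold change of 5 subunit genes in 4 comparisons, with 95% intervals on filled points; open points are shown without an interval because that contrast or its collagen libraries chose the genes, and PRKAR2B is not drawn because of its low counts. PRKAR2A is at -1.66, 1.14 and 1.11 in the first 3 panels and at 0.03 between the inhibitors, and the other genes stay within 0.49 of 0.

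Compared with each other per kilobase of canonical transcript, the subunit genes fell into 3 tiers over the 16 libraries. PRKAR1A (38.9 CPM per kb), PRKAR1B (36.98) and PRKACA (26.8) formed the upper tier. The ranges of PRKAR1A and PRKAR1B, 31.5 to 47.0 and 28.4 to 47.7 CPM per kb, overlapped almost wholly, and that of PRKACA, 18.9 to 33.1, overlapped the lower end of both. PRKAR2A (5.49 CPM per kb, range 1.06 to 8.44) and PRKACB (3.56, range 2.58 to 5.17) came next and overlapped each other. PRKAR2B was lowest at 0.111 CPM per kb, with no library above 0.512. The coefficient of variation over the 16 libraries was 37.7% for PRKAR2A against 9.51% for PRKAR1A, 14.3% for PRKACA, 16.3% for PRKAR1B and 20.1% for PRKACB. For PRKAR2A that spread includes the difference between collagen and control that picked the gene.

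Set against the other regulatory subunits in the same library, PRKAR2A made up 8.24% to 9.52% of the summed regulatory level per kb in control. In collagen replicates 1 to 4 the shares were 4.16%, 3.96%, 8.56% and 1.32%. They were 6.37% to 7.75% with DDR1i and 4.12% to 7.86% with RUNXi. As for the PRKAR2A level itself, collagen replicate 3 was in the control range, and the other 3 collagen libraries were below every control library. This share and the ratio that follows rest on the PRKAR2A values that picked the gene. They restate that difference and support nothing. The ratio of PRKAR2A to PRKAR1A per kb, the RIIα to RIα mRNA ratio, was 0.177 to 0.204 in control. It was 0.0845, 0.0782, 0.179 and 0.0317 in collagen replicates 1 to 4, 0.130 to 0.154 with DDR1i and 0.0809 to 0.183 with RUNXi. PRKAR1A and PRKAR1B together supplied over 90% of the regulatory level in each library, so the summed regulatory level moved less than PRKAR2A did. Summed regulatory per summed catalytic level was 3.15 ± 0.589 in control, 2.64 ± 0.456 with collagen, 2.65 ± 0.308 with DDR1i and 2.49 ± 0.459 with RUNXi (SD, n = 4 each), and the groups overlapped. Without collagen replicate 3 the collagen value was 2.712 ± 0.5309 (SD, n = 3). These are mRNA levels per canonical transcript length, and neither subunit protein nor isoform use was measured.

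**Figure D3:**
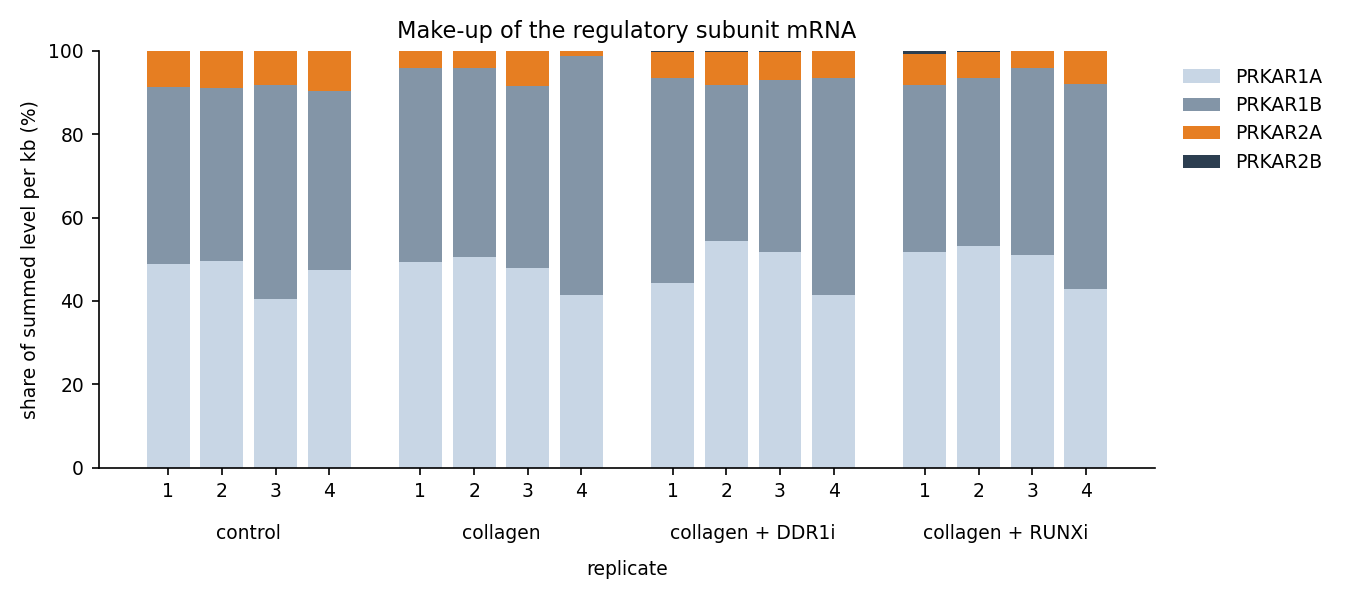
Share of each regulatory subunit gene in the summed regulatory level per kb (%), 1 bar per library, grouped by treatment. PRKAR2A takes 8.24% to 9.52% of the control bars and 1.32% of the bar of collagen replicate 4, and the type I genes PRKAR1A and PRKAR1B fill most of every bar.

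A further 80 genes of the pathway were read as 7 lists, of which 59 genes were tested in the inhibitor contrasts. With DDR1i against collagen 2 of the 59 passed (3.39%, against 2.47% of all genes), 1 higher and 1 lower. With RUNXi against collagen 4 of 59 passed, all higher (6.78%, against 4.05%). Between the inhibitors 1 of 59 passed (1.69%, against 0.568%), and between collagen and control 0 of 58 passed in edgeR's test, with 11 at an unadjusted p under 0.05 (13.4% of all genes were) and 3 by DESeq2 (3.16% of all genes were). The median log2 difference of the 80-gene panel's tested members was 0.14 with DDR1i and 0.12 with RUNXi, against 0.00 and 0.01 for all genes. The 2 inhibitor contrasts share the collagen libraries.

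The A-kinase anchoring proteins tether the regulatory dimer, RII above all, to particular sites in the cell. Of 19 genes 14 were tested, and 1, AKAP9, passed with each inhibitor. AKAP9, a large anchor of the Golgi and centrosome, stood at 22.6, 24.8, 36.6 and 16.4 CPM in collagen replicates 1 to 4, at 26.8, 40.8, 38.9 and 37.9 CPM with DDR1i, and at 35.8, 34.7, 39.3 and 39.6 CPM with RUNXi. It rose against the retained collagen libraries by 0.76 on the log2 scale with DDR1i (adjusted p = 0.0264) and by 0.81 with RUNXi (adjusted p = 0.0185). AKAP9 was called in 13 of 20 alternatives with DDR1i and in 16 of 20 with RUNXi. With collagen replicate 3 included neither held (0.52, adjusted p = 0.483, and 0.56, adjusted p = 0.263). Both were lost with the length trend removed (0.37, adjusted p = 0.259, and 0.48, adjusted p = 0.126) and with all 4 groups in one fit (adjusted p = 0.147 and 0.0976). Control libraries spread from 13.6 to 46.3 CPM for this gene and overlapped all other groups. The DDR1i call was also lost without collagen replicate 4 (adjusted p = 0.14) and without DDR1i replicate 2, 3 or 4 (0.074 to 0.0963), and the RUNXi call without collagen replicate 4 (0.0966). In collagen against control, 13 of the 14 tested anchoring genes had a fitted difference below 0, with a median of -0.26, where 49.1% of all genes lay below 0 with a median of 0.01. None passed, and the list as a whole was not tested. These differences leave out collagen replicate 3, and the part of transcript length in them was not tested. The most abundant anchor, the membrane-cytoskeleton linker EZR, held 307.7 to 336.7 CPM with DDR1i and 252.1 to 314.2 CPM with collagen, and its difference of 0.20 did not pass.

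Adenylyl cyclases make cyclic AMP under the control of G alpha subunits. GNAS, which encodes the stimulatory G alpha that cholera toxin locks in its active form, was the most abundant gene of this list, at 630.0 ± 49.1 CPM in control and 706.0 ± 13.1 CPM with collagen (SD, n = 4 each), and passed in no contrast. The cyclase ADCY3 rose by 0.62 on the log2 scale with RUNXi against collagen (adjusted p = 0.0228). Its levels were 50.2, 54.3, 77.9 and 43.8 CPM in collagen replicates 1 to 4 and 71.99, 73.6, 73.2 and 86.7 CPM with RUNXi. Collagen replicate 3 lay among the RUNXi values, and with it included the call was lost (0.42, adjusted p = 0.303). It was lost as well with the length trend removed (0.48, adjusted p = 0.0825), without collagen replicate 4 (0.0956) and without RUNXi replicate 4 (0.0689), and held in 16 of 20 alternatives. With DDR1i the libraries held 59.1 to 87.7 CPM. The other 9 tested genes of the list did not pass with either inhibitor.

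The phosphodiesterases, which break cyclic AMP down, gave no call in any of the 4 contrasts among 10 tested genes (9 in collagen against control). PDE8A, the most abundant, stayed at 34.7 to 38.1 CPM with collagen, 28.1 to 37.3 CPM with DDR1i and 30.5 to 39.7 CPM with RUNXi. Of the other catalytic and inhibitor genes, 4 of 5 were tested and none passed, while PRKACG was at 0 in all libraries. PRKX, a kinase related to the catalytic subunits, was the most abundant of these, at 63.5 ± 2.32 CPM in control, 55.8 ± 11.4 CPM with collagen, 60.6 ± 5.55 CPM with DDR1i and 58.2 ± 5.03 CPM with RUNXi (SD, n = 4 each). Neither did any of the 3 tested cyclic AMP receptors outside the kinase pass, of which POPDC3 was highest at a mean of 15.3 CPM.

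In the CREB machinery, which reads the kinase's activity in the nucleus, 1 of 10 tested genes passed. SIK2, a kinase that holds CREB coactivators in the cytoplasm and is itself restrained by protein kinase A, rose by 0.63 on the log2 scale with RUNXi against collagen (adjusted p = 0.0451). Its RUNXi libraries stood at 33.9 to 36.7 CPM and the collagen libraries at 24.6, 23.2, 35.6 and 20.5 CPM. That call was close to the threshold: it held in 8 of 20 alternatives, and in 3 of 11 when single libraries were dropped. Leaving out any of collagen replicates 1, 2 and 4, DDR1i replicate 2 or any RUNXi replicate ended it (adjusted p from 0.0539 to 0.171), as did including collagen replicate 3 (0.338), removing the length trend (0.358), fitting all 4 groups together (0.0577) and leaving out the 7 libraries with sparse low counts (0.0755). The coactivator CRTC2 was the most abundant gene of the list, at 54.88 ± 6.199 CPM in control and 55.3 ± 4.84 CPM with collagen (SD, n = 4 each). In collagen against control, 8 of the 10 genes had a difference below 0, against 49.1% of all genes, none passed, and the list was not tested. Collagen replicate 3 is left out of these differences too, and the part of transcript length in them was not tested.

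Among 10 genes known to be induced through cyclic AMP and CREB, 8 were tested. DUSP1, an immediate early phosphatase that turns off MAP kinases, stood at 448.6, 363.5, 428.2 and 415.8 CPM in collagen replicates 1 to 4 and at 268.1, 209.6, 263.7 and 219.9 CPM with DDR1i. No DDR1i library reached the lowest collagen library. It fell by 0.77 on the log2 scale with DDR1i (adjusted p = 0.0028), a call that held in 20 of 20 alternatives, including collagen replicate 3. The markers KRT5, KRT14, KRT17 and EPCAM were also lower on average with DDR1i than with collagen, whereas CDH1 was not and TP63 was nearly level. Their part in the DUSP1 difference was not tested. With RUNXi DUSP1 stood at 340.6, 359.3, 292.3 and 414.0 CPM and did not pass against collagen. Between the inhibitors DUSP1 was lower with DDR1i by 0.55 (adjusted p = 0.0235), in 14 of 20 alternatives. That call was lost with all 4 groups in one fit (adjusted p = 0.181), without DDR1i replicate 2 or 4 (adjusted p = 0.118 and 0.1) and without RUNXi replicate 1, 2 or 4 (0.0681, 0.0948 and 0.119). Control libraries held 211.6 to 415.9 CPM and overlapped all groups.

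NR4A1, an orphan nuclear receptor of the same early response, stood at 14.2, 10.3, 8.35 and 3.85 CPM with collagen and at 22.2, 16.5, 30.4 and 28.3 CPM with RUNXi. The groups did not overlap. It rose by 1.36 on the log2 scale with RUNXi (adjusted p = 0.0239) and held with collagen replicate 3 included, but not without collagen replicate 4 (0.99, adjusted p = 0.079) or RUNXi replicate 3 or 4 (0.0698 and 0.0588). DDR1i libraries held 8.41 to 13.8 CPM and control libraries 4.13 to 7.69 CPM. AREG, an EGF receptor ligand and the most abundant gene of the list, was 556.6 ± 124.4 CPM in control and 701.1 ± 174.9 CPM with collagen (SD, n = 4 each) and passed in no contrast. Of the 8 tested genes of the list, 4 had a difference above 0 with DDR1i against collagen (median 0.02), 7 with RUNXi against collagen (median 0.13) and 1 with DDR1i against RUNXi (median -0.43). Over all genes, 49.7%, 49.5% and 48.8% lay below 0 in these contrasts.

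**Figure D4:**
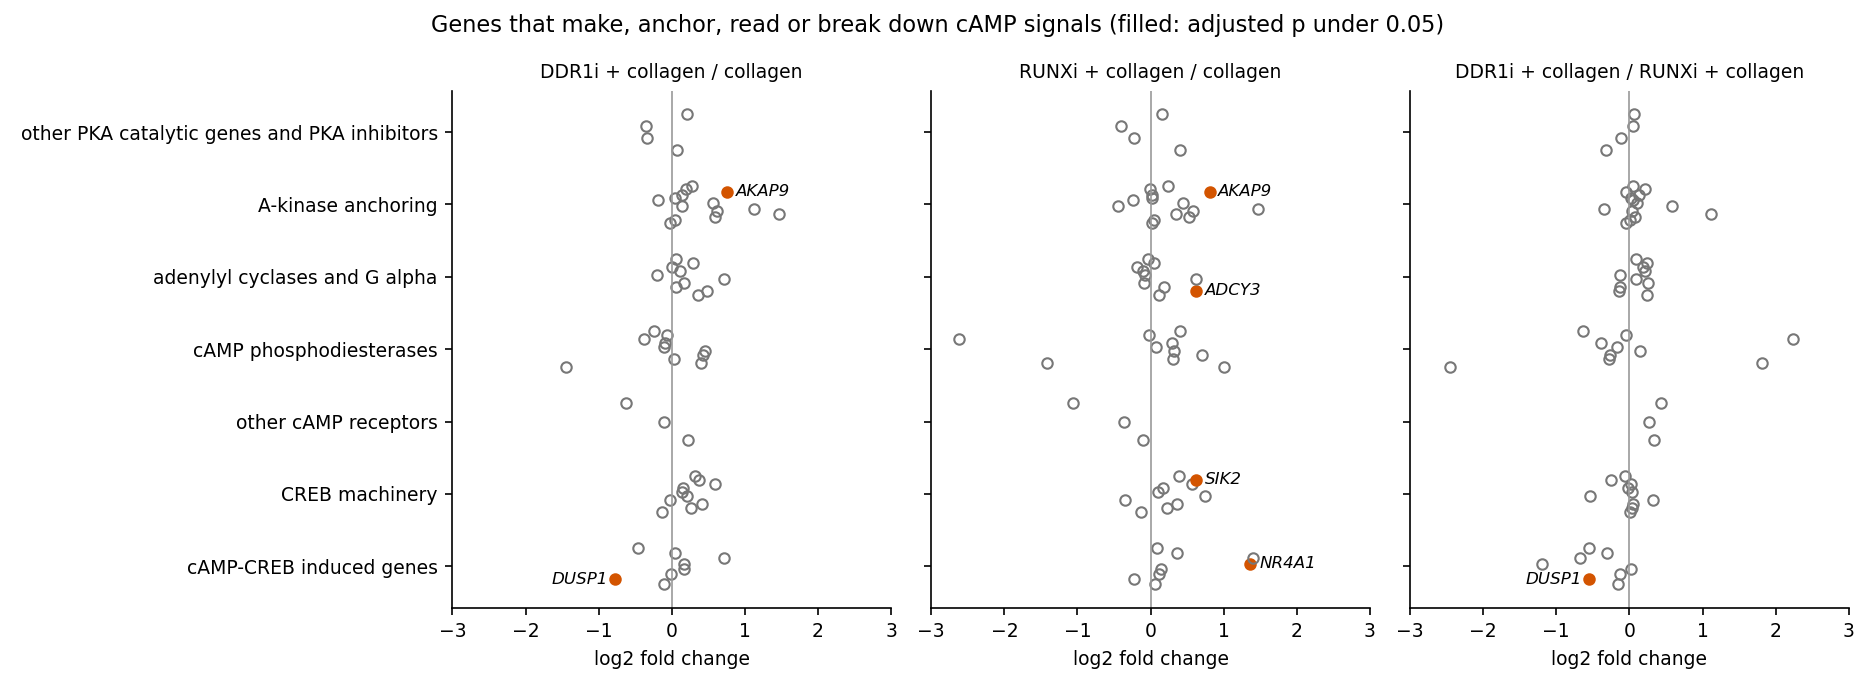
Log2 fold change of the tested cyclic AMP pathway genes, 1 point per gene, in 7 lists for the 3 contrasts among collagen-treated groups, with genes past an adjusted p of 0.05 filled and named. AKAP9 passes with both inhibitors, ADCY3, SIK2 and NR4A1 with RUNXi, and DUSP1 lies at -0.77 with DDR1i against collagen and at -0.55 between the inhibitors.

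The genes whose levels followed PRKAR2A most closely over the 16 libraries, out of 13518 compared by Pearson's r of log2 CPM, were GTF3C4 (0.975), ASXL2 (0.934), CDK12 (0.932), SUPT16H (0.923) and TENM3 (0.914). The points share their libraries and depth, and the ranking is a description. All r values here include the gap between collagen and control that picked PRKAR2A, so they support nothing. GTF3C4 held 37.9 to 40.2 CPM in control, 11.7 to 40.4 CPM with collagen, 26.7 to 34.8 CPM with DDR1i and 18.5 to 36.8 CPM with RUNXi, and collagen replicate 3 was again its highest collagen library. PRKAR2A has a long transcript, 6492 bases, and 85% of the tested genes with a known length were shorter (median 3259.5 bases). The 5 genes most like it had transcripts of 4433 to 12849 bases. When a trend of each library's levels with transcript length was removed, the PRKAR2A difference was -1.52 in collagen against control, 0.93 with DDR1i and 0.92 with RUNXi. These contrasts chose the gene or share its collagen libraries, so the values support nothing. The part of transcript length in them was not tested. The other subunit genes followed PRKAR2A less closely, with r of 0.529 for PRKAR1A, 0.302 for PRKACB, 0.15 for PRKAR2B, -0.0906 for PRKACA and -0.101 for PRKAR1B.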

How the data were processed

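RNA from 16 MCF10A samples was sequenced with a TruSeq kit as paired reads. The authors aligned reads with STAR to hg19 and deposited raw read counts per gene, 1 column per library. The counting tool, its annotation and its strand setting are not given in the sources used here. Samples were grouped by GEO's labels. Members and gene lists were chosen with earlier results of these data known. Counts were tested with edgeR 4.0.16 (R 4.3.3; TMM, filterByExpr with a minimum count of 10, robust quasi-likelihood fit), and p-values were Benjamini-Hochberg adjusted over all genes tested, with a threshold of 0.05. One fit held 3 collagen, 4 DDR1i and 4 RUNXi libraries, and another held 3 collagen and 4 control libraries. Collagen replicate 3 was left out, as in the study. DESeq2 1.42.0, other filters, each library left out, a replicate block and removal of a length trend (spline, 4 degrees of freedom) were alternatives. CPM values use TMM over 16 libraries, and a count of 0 was taken to allow 3 counts. Collagen means given with n = 4 include replicate 3, which the fits leave out. Annotation was GENCODE on GRCh37, with lengths for 21993 genes. Of the symbols, 22606 matched current names and 1324 older ones. Promoter sequences came from RefSeq (GRCh38.p14). On data simulated for DDR1i against collagen (13250 genes) without a length trend, edgeR called 68 of 106 genes changed by 1 on the log2 scale and 62 of 86 changed by 1.5, none in the wrong direction, with 6 unchanged genes called. When a length trend was also planted in the collagen libraries, edgeR called 843 genes outside the changed set, and 13 once the trend was removed. Named genes were the members, pathway genes past the threshold (at most 5 per list and comparison), the most abundant gene of each list, and the 5 genes most like PRKAR2A.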

Additional observations from a re-analysis of the deposited data

Results flagged for a closer look

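Within groups of 4 libraries, 36 sets of values were examined for a lone library far from the rest, of which chance flags about 1 in 20, and 2 stood out. PRKAR1A in the RUNXi group was one, since replicate 2 at 200 CPM lay apart from 157.3 to 160.0 CPM, with a gap of 0.936 of the group's range (Dixon's test at 95%). The other was the total count of the collagen group, where replicate 1 had 17570707 counts and the others 26642600 to 27695778, a gap of 0.896 of the range. DUSP1 differed between the inhibitors, both with collagen, by -0.546 on the log2 scale (DDR1i minus RUNXi, edgeR adjusted p = 0.0235).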

How the results depend on the processing

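No subunit gene passed the threshold under any alternative in a contrast where it was tested. Where a sign turned, the values lay near 0 or rested on few counts, and the cause was not tested. PRKAR2B gave no value where at least 10 counts were asked of every library. With DDR1i against collagen, PRKAR1A turned to -0.00102 with collagen replicate 3 and to -0.0914 with the length trend removed, and PRKACA turned to 0.0691 without the 7 libraries of sparse low counts, a setting chosen after seeing the data. Leaving out 1 library at a time gave -0.0238 to 0.101 for PRKAR1A, -0.105 to 0.108 for PRKACA and -0.304 to 0.0126 for PRKAR1B. Between the inhibitors that range was -0.16 to 0.19 for PRKAR2A, -0.54 to 0.84 for PRKAR2B, -0.13 to 0.0154 for PRKAR1A and -0.15 to 0.14 for PRKAR1B. Without those 7 libraries the same contrast gave -0.21 for PRKAR2A, 0.25 for PRKAR2B and -0.0896 for PRKAR1B, and PRKAR1B was -0.00847 with the length trend removed.

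PRKAR2A against collagen was 2.34 with DDR1i and 2.56 with RUNXi without the 7 libraries, where collagen replicate 4 stands alone and is assumed to vary like the other groups. In collagen against control that setting gave -2.85 for PRKAR2A, -0.27 for PRKAR1A, 0.36 for PRKAR1B and -0.62 for PRKACB.

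Genes called over the whole table for DDR1i, RUNXi, and DDR1i against RUNXi were, in that order, 857, 1160 and 134 with DESeq2, 755, 1046 and 163 with no filter, and 1027, 1250 and 35 without the 7 libraries. They were 161 and 202 with the length trend removed and 9 and 60 with collagen replicate 3 for DDR1i and RUNXi. Leaving out 1 library gave 60 to 662, 123 to 715 and 53 to 109. Collagen against control gave 414 with DESeq2, 284 with no filter, 313 with all groups in one fit and 2684 without the 7 libraries.

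Pathway genes called with DDR1i were 6 with DESeq2, 8 with no filter, 9 without the 7 libraries, 1 each with collagen replicate 3, all groups or the length trend removed, and 1 to 5 with 1 library left out. With RUNXi they were 8 with no filter, 9 without the 7 libraries, 2 with all groups, 1 each with collagen replicate 3 or the length trend removed, and 0 to 5 with 1 library left out. Between the inhibitors they were 2 with DESeq2, 3 with no filter, 0 with all groups and 0 to 2 with 1 library left out. Collagen against control gave 3 with DESeq2, 2 with no filter, 3 with all groups and 13 without the 7 libraries.

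The labels do not say what a replicate number stands for, and the numbers did not meet the bar for pairing, a correlation over 0.1 of deviations from the group means in every same-number pair: 7 of 21 pairs did, 6 of them the 6 pairs of replicate 4 (0.161 to 0.276). Same-number correlations had a median of 0.0726 (-0.0925 to 0.276), against -0.0332 (-0.144 to 0.191) for different numbers, and 11 of 15 libraries correlated best with one of their own number, a hint from the data and not the design. With a replicate block the calls were 537 for DDR1i and 154 between the inhibitors, the pathway calls were 6, 7 and 2, and PRKAR2B between the inhibitors was 0.36.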
